A study of Mus musculus with 6 samples.

Results

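The genes described here are 32 genes of cholesterol and fatty acid synthesis, a named list taken whole, out of 23285 genes that could be tested on the array. Their probes were found by the RefSeq transcript that the scanner files give, and each gene was represented by its brightest probe. By role they comprise 7 enzymes of the mevalonate arm, 11 squalene and sterol enzymes, 5 SREBP regulators and the sterol carrier Stard4. The other 8 are genes of fatty acid synthesis and desaturation. The SREBP regulators are Srebf1 and Srebf2, which encode the transcription factors called SREBPs, and Scap, Insig1 and Insig2, which control them. All 32 passed the filter on dim probes, and all 32 were well above background on every one of the 6 arrays. Over all tested genes, 87.5% were well above background on all 6.

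The samples were sorted bone marrow cells of C57BL/6 mice, which the labels call bone marrow mesenchymal stem cells, the stromal progenitors of bone, fat and cartilage. Of the mice, 1 group was 24 months old (3 samples, called old below) and the other 3 months old (3 samples, called young). No allele, transgene or treatment is named for either age. The labels name neither the sort markers nor the sex, and do not say that the samples came from separate animals, so a p-value measures the spread between these samples, which may be partly technical. Each sample was hybridised to 1 single-colour Agilent array, all on the same slide. The old arrays lay in one row of the slide and the young arrays in the other, so slide row and age cannot be told apart.

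Mammalian cells make cholesterol from acetyl-CoA. The mevalonate arm builds the isoprenoid farnesyl pyrophosphate, a pair of which is joined to squalene, and squalene is then closed to lanosterol and trimmed to cholesterol. Fatty acids start from the same acetyl-CoA, which Acly releases from citrate, Acaca carboxylates and Fasn extends. Both routes are driven by SREBPs, held in the endoplasmic reticulum by Scap and the Insig proteins when sterol is plentiful and released to the nucleus when it is scarce. In bone marrow, stromal progenitors can become adipocytes, cells that make and store fatty acids.

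A level is given below as the log2 signal relative to its own array's 75th percentile, so 0 is that percentile and negative values are dimmer. The 6 arrays alone limit the precision of each value. Since probes differ in brightness, one gene's level cannot be set against another's. A difference is old minus young on this log2 scale, and a gene was called when limma's p-value, adjusted by the Benjamini-Hochberg method over all 23285 genes, was under 0.05.

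The signal at the 75th percentile lay between 229 and 319 on old arrays, against 315 to 393 on young arrays, and no spot was saturated. Between 51.0% and 53.5% of probes were well above background on old arrays, against 55.3% to 60.0% on young arrays. Of the markers of the labelled cell type, Lepr and Cxcl12 were well above background on all 6 arrays, whereas Pdgfra, Pdgfrb and Prrx1 were so on none. Ptprc, which encodes the leukocyte surface protein CD45, was well above background on all 6, and the adipocyte hormone Adipoq on none of the old and 2 of the young arrays. In bulk RNA, fewer cells of a type and less RNA per cell cannot be told apart.

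Promoters are shown for 3 genes: Insig1, the member with the largest difference between the ages; Hmgcs1, the only member whose window held the sterol-type motif searched; and Acly, a member with a further probe that was called. The sequences are RefSeq's, build GRCm38.p6, and run over the 250 bases before the start of transcription, 5′ to 3′ on the gene's strand. Capitals mark the CCAAT box, the GC box GGGCGG and the sterol-type motif TCACNCCAC, each searched on both strands, with overlapping matches counted for each motif; a match on the other strand appears as its reverse complement.
Insig1, chr5:28071162-28071411, plus strand: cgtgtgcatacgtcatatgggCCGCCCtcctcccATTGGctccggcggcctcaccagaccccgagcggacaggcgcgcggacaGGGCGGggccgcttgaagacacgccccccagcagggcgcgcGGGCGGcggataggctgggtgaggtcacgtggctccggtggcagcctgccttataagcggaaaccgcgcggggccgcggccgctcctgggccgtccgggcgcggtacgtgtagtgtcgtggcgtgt
Hmgcs1, chr13:119690101-119690350, plus strand: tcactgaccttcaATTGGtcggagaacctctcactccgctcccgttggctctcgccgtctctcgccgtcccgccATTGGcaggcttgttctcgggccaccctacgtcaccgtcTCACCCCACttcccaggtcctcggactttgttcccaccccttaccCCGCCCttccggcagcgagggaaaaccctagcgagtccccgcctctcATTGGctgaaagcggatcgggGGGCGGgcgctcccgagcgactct
Acly, chr11:100528001-100528250, minus strand: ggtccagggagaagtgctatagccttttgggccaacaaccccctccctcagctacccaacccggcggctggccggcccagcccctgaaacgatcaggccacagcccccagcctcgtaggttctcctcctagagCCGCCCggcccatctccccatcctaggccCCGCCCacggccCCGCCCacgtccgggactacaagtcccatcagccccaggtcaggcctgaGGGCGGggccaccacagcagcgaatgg

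RefSeq promoters were at hand for 25 of the 32 members, and a gene with several start sites was counted once if any window held the motif. CCAAT, the box bound by NF-Y, was found in 19 of 25 members (76.0%), against 37.5% of the 27025 genes with a promoter. It was in 14 of the 15 mevalonate, squalene and sterol enzymes with a window, and in 1 of the 5 fatty acid genes. GGGCGG, the GC box bound by Sp1, was in 21 of 25 members (84.0%), against 35.4% of all genes. TCACNCCAC, one form of the sterol response element, was in 1 of 25 members, against 1.22% of all genes. These matches describe the windows and are not evidence of binding. The members with no window here were Stard4, Fdft1, Fdps, Scd1, Scd2, Sqle and Fads1.

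None of the 32 genes changed between the ages at the adjusted threshold: 0 were called higher and 0 lower in old samples. Over all tested genes, 1955 were called (8.4%), of which 1020 were higher in old (4.38%) and 935 lower (4.02%). With the other scalings and background correction, the direction of the calls shifted: 52.2% of them were positive with the main scaling, 41.9% with cyclic loess, 39.0% in the deposited table and 69.1% with normexp. The members' adjusted p-values lay between 0.0583, for Srebf1, and 1, for Fasn. At an unadjusted p under 0.05, limma, the only tool run, passed 7 members, a share of 21.9%, against 28.9% of all genes.

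Most of the differences were small as well as uncalled. The members' median log2 difference was 0.12, against 0.08 over all tested genes, with 20 members above 0 and 12 below. The share above 0 was 62.5% among members and 62.5% among all genes. With normexp background correction the medians stood in the other order, 0.08 for members and 0.12 for all genes. The median size of the difference, whatever its sign, was 0.17 among members and 0.20 among all genes, and the median standard error was 0.12 among members and 0.13 among all genes. For 31 of the 32, the 95% interval of the difference lay inside a 2-fold change in either direction, and for 19 it lay inside 0.5 log2 units. Called genes of the array had a median size of 0.88, and the smallest was 0.33. Size helps to decide a call, so called genes are larger by selection. Of them, 408 were under 0.6 in size. The members Insig1 (0.59), Acat2 (0.42), Insig2 (-0.40) and Srebf1 (0.38) exceeded the smallest called size. Old and young values did not overlap for 7 members with old above young (Acat2, Pmvk, Sqle, Srebf1, Insig1, Acly and Acaca), a share of 21.9% against 24.9% of all genes. They did not overlap for 1 member with old below young (Insig2), a share of 3.12% against 12.3% of all genes.

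**Figure D1:**
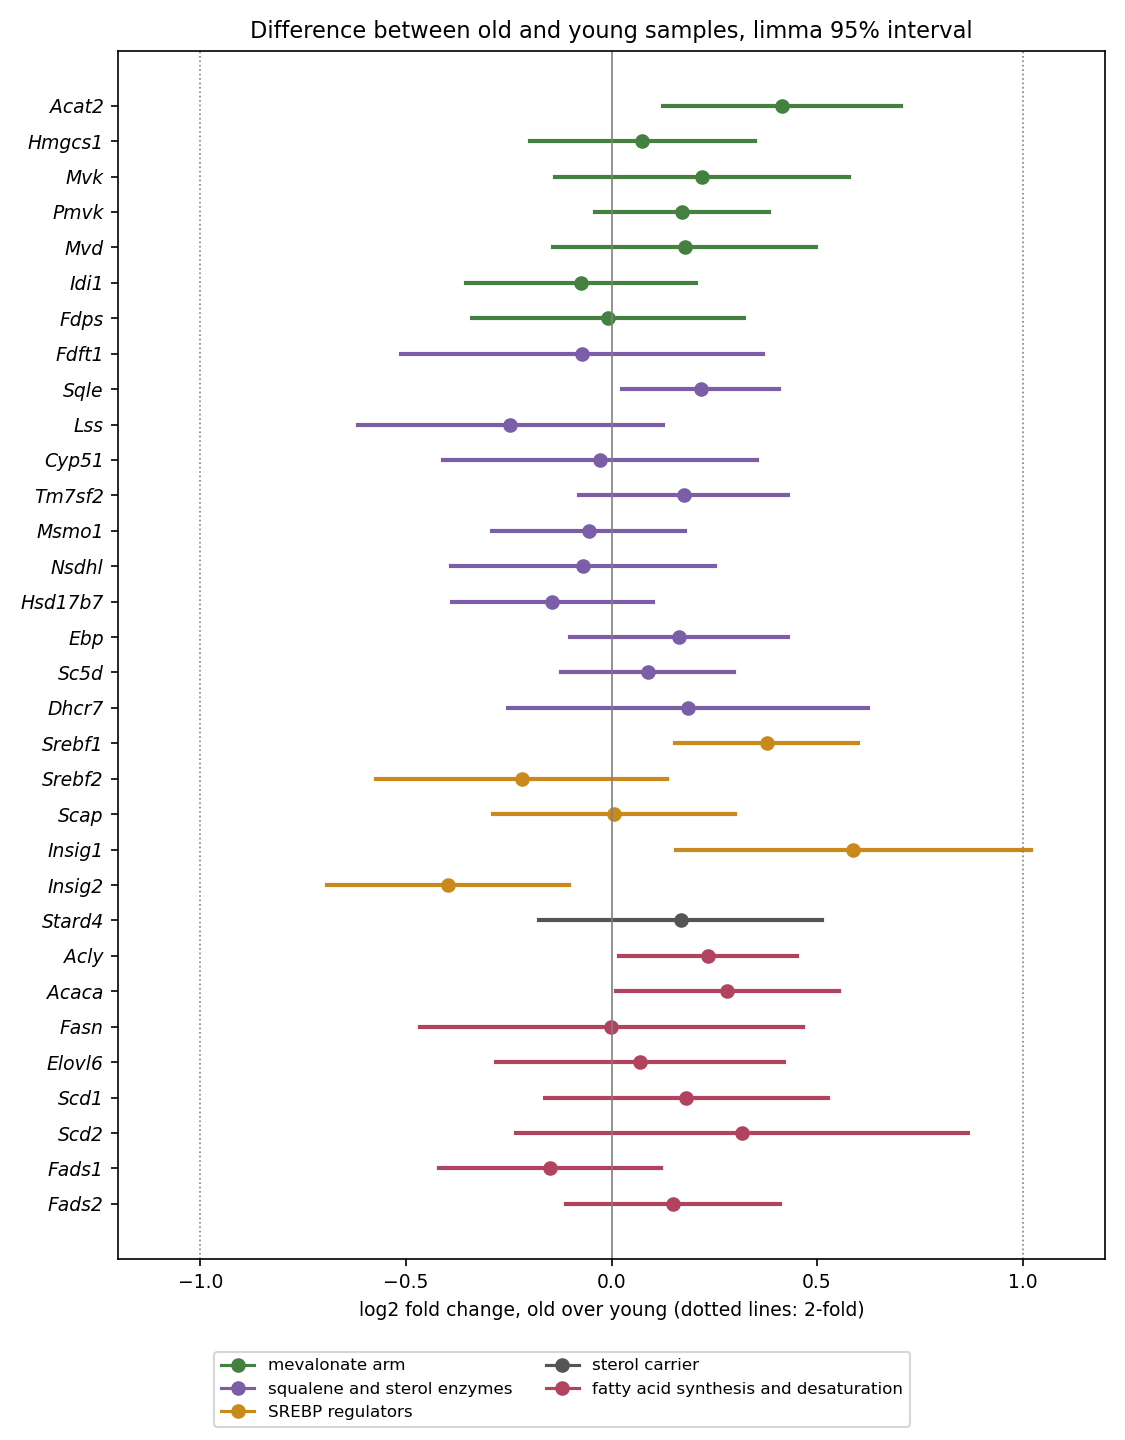
Log2 fold change of old over young for each of the 32 genes (point) with its 95% interval from limma (line), coloured by role; dotted lines mark a 2-fold change. Only the interval of Insig1 passes a dotted line, and 7 intervals leave out 0, none of them past the adjusted threshold.

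The mevalonate arm had a median log2 difference of 0.17 over its 7 enzymes, 5 of them above 0. Its first step, the joining of acetyl-CoA units by the thiolase Acat2, had levels of -0.61, -0.45 and -0.29 in old samples, against -0.79, -1.01 and -0.78 in young samples. Every old value of Acat2 lay above every young value, and the log2 difference was 0.42 ± 0.12 (SE, n = 3 each, limma adjusted p = 0.0844). Hmgcs1, which makes HMG-CoA, stood at 1.77, 1.79 and 1.60 in old samples, against 1.54, 1.82 and 1.56 in young samples. Its groups overlapped, with a difference of 0.08 ± 0.11 (SE, adjusted p = 0.698).

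The kinases and the decarboxylase that turn mevalonate into isopentenyl pyrophosphate came next. The first kinase, Mvk, had levels of 1.67, 2.15 and 1.93 in old samples, against 1.66, 1.85 and 1.58 in young samples. For the second, Pmvk, they were 4.81, 4.78 and 4.90 in old samples, against 4.62, 4.61 and 4.76 in young samples. Pmvk's groups just missed each other whereas those of Mvk overlapped, and the log2 differences were 0.17 ± 0.09 for Pmvk (SE, adjusted p = 0.251) and 0.22 ± 0.15 for Mvk (SE, adjusted p = 0.371). Mvd, the decarboxylase, had levels of -0.78, -0.84 and -1.01 in old samples, against -1.24, -1.10 and -0.83 in young samples, a difference of 0.18 ± 0.13 (SE). The values of Mvd overlapped, with young replicate 3 at the level of the old samples.

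Idi1 isomerises isopentenyl pyrophosphate and Fdps condenses the products to farnesyl pyrophosphate. Idi1 stood at 2.68, 2.80 and 2.47 in old samples, against 2.62, 2.74 and 2.81 in young samples. Fdps stood at 4.47, 4.48 and 4.08 in old samples, against 4.27, 4.32 and 4.46 in young samples. In both genes the third old sample was the lowest of all 6, and the other old samples lay within or just above the young range. The log2 differences were -0.07 ± 0.11 for Idi1 and -0.0094 ± 0.14 for Fdps (SE, n = 3 each).

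**Figure D2:**
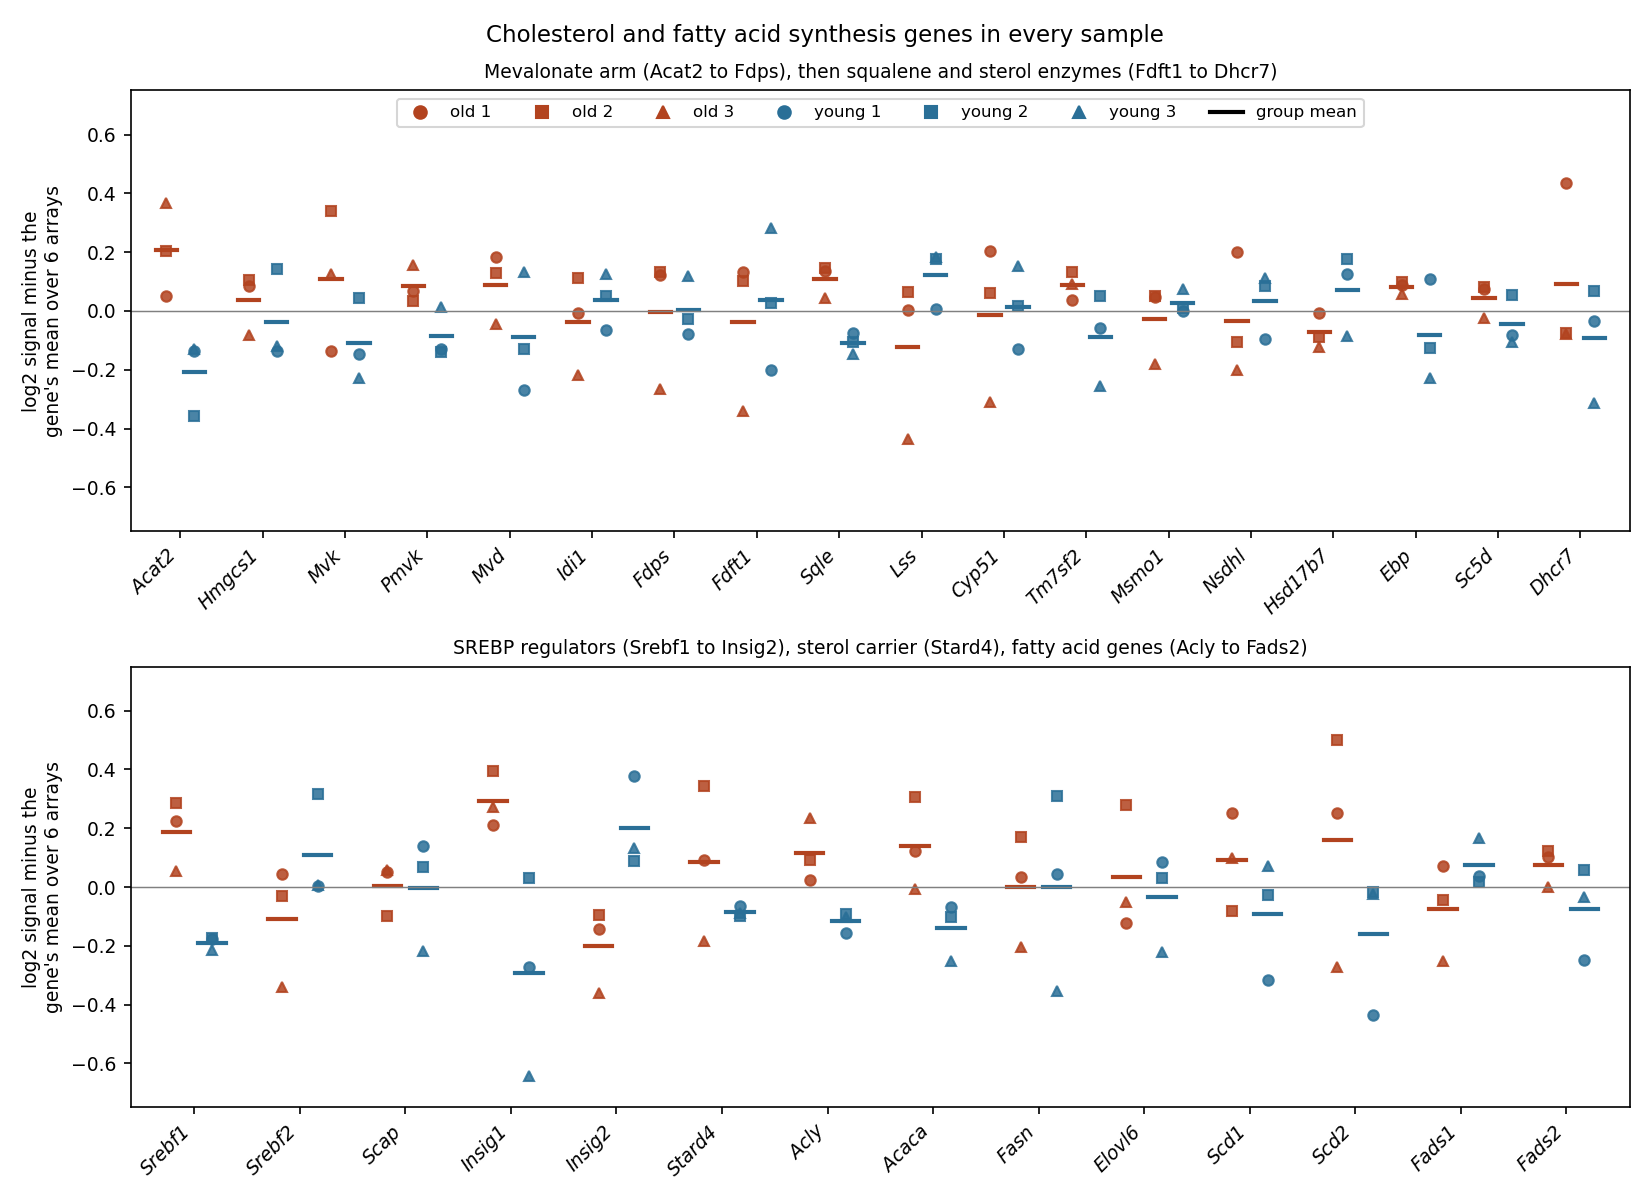
Log2 signal of each gene in each sample minus the gene's mean over the 6 arrays, with old samples left of young samples and a bar at each group mean; symbols give the replicate number. Old replicate 3 lies lowest among the old samples for most sterol enzymes. The groups do not overlap for 7 genes with old above young, Insig1, Srebf1 and Acat2 among them (21.9%, against 24.9% of all genes). They do not overlap for 1 gene with old below young, Insig2 (3.12%, against 12.3% of all genes).

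The 11 squalene and sterol enzymes had a median log2 difference of -0.03, with 5 above 0 and 6 below, and ranged from -0.25 to 0.22. Sqle, the epoxidase that commits squalene to sterols, was the only one without overlap. It stood at 3.84, 3.85 and 3.75 in old samples, against 3.63, 3.60 and 3.56 in young samples. The difference was 0.22 ± 0.08 (SE, n = 3 each, limma adjusted p = 0.135). Lss, which closes the epoxide to lanosterol, had the most negative difference, -0.25 ± 0.15 (SE, adjusted p = 0.337). Its levels were -0.14, -0.08 and -0.58 in old samples, against -0.14, 0.04 and 0.04 in young samples. Old replicate 3 was the lowest of the 6, and without it the difference of Lss was -0.09.

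The squalene synthase Fdft1 had levels of 0.86, 0.83 and 0.39 in old samples, against 0.53, 0.75 and 1.01 in young samples. Cyp51, the lanosterol demethylase, had levels of -0.97, -1.12 and -1.49 in old samples, against -1.31, -1.16 and -1.02 in young samples. Both genes again had their lowest value of all 6 arrays in old replicate 3, and their differences were -0.07 ± 0.18 and -0.03 ± 0.16 (SE). Msmo1, the methylsterol oxidase, stood at 2.01, 2.02 and 1.79 in old samples, against 1.97, 1.98 and 2.04 in young samples. Nsdhl, the sterol dehydrogenase that removes the same methyl groups, stood at 0.11, -0.20 and -0.30 in old samples, against -0.19, -0.01 and 0.02 in young samples. Their differences of -0.06 ± 0.10 and -0.07 ± 0.13 (SE) were smaller than their standard errors.

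The other enzymes reduce, isomerise or desaturate the sterol rings. Tm7sf2, a sterol reductase, had a difference of 0.18 ± 0.10, Ebp, the sterol isomerase, one of 0.16 ± 0.11, and Sc5d, the sterol desaturase, one of 0.09 ± 0.09 (SE, n = 3 each). Tm7sf2 stood at 1.09, 1.18 and 1.14 in old samples, against 0.99, 1.1 and 0.80 in young samples, with the groups overlapping at 1 old and 1 young value. Sc5d stood at 1.02, 1.03 and 0.92 in old samples, against 0.86, 1.0 and 0.84 in young samples. Ebp was tight in old samples, at 5.56, 5.57 and 5.52, against 5.58, 5.34 and 5.24 in young samples, where replicate 1 matched the old level. Dhcr7, which completes cholesterol by reducing 7-dehydrocholesterol, had levels of 0.55, 0.04 and 0.04 in old samples, against 0.08, 0.18 and -0.19 in young samples. Its difference of 0.19 ± 0.18 rested on old replicate 1 and was 0.02 without it. Hsd17b7, a ketosteroid reductase, had levels of -1.89, -1.97 and -2.0 in old samples, against -1.76, -1.70 and -1.97 in young samples, a difference of -0.14 ± 0.10 (SE, adjusted p = 0.388).

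The 18 enzymes of the route to cholesterol did not spread evenly among the old samples. Old replicate 3 held the lowest old value for 10 of the 11 squalene and sterol enzymes and for 23 of all 32 members (71.9%), against 32.6% of the 23265 genes with a value on every array. The members' median deviation of old replicate 3 from the old mean was -0.13, against 0.01 over all genes. Over all members no comparable share was seen in the young samples, where replicates 1, 2 and 3 held the lowest young value for 14, 5 and 13 of the 32. In the mevalonate arm, old replicate 3 and young replicate 1 each held the lowest value of their group for 4 of 7 enzymes. There young replicate 3 held the highest young value for 5 of 7. Without old replicate 3, the differences of Idi1, Fdps, Fdft1, Cyp51, Msmo1, Nsdhl and Fasn turned positive, at 0.014 to 0.12, and that of Scap turned negative, at -0.021. The genes that turned positive had their lowest old value on that array, so leaving it out had to raise their differences. That fit called 0 of all tested genes, so its lack of calls says nothing particular to the members. The pattern was noticed in these values and has no test. Old replicate 3 also had the lowest 75th percentile signal, 229, and whether this bears on the pattern was not tested.

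**Figure D3:**
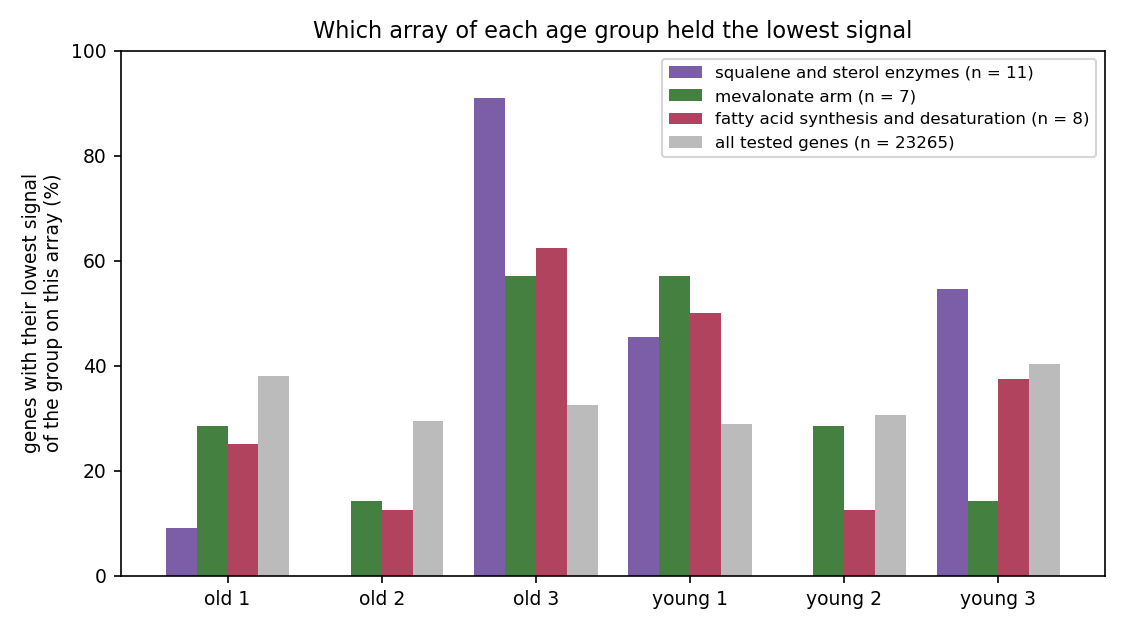
Share of genes, in percent, whose lowest signal within the age group fell on each array, for 3 roles of the members and for all genes with a value on every array (grey bars). Old replicate 3 holds the lowest old value for 90.9% of the squalene and sterol enzymes, against 32.6% of all genes.

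The SREBP regulators were the role with the widest spread, from -0.40 to 0.59, and a median of 0.01. Insig1, which retains the SREBP escort in the endoplasmic reticulum and is itself an SREBP target, had the largest difference of any member. Its levels were -1.45, -1.26 and -1.39 in old samples, against -1.93, -1.63 and -2.30 in young samples. All old values lay above all young values, and the young samples were spread more widely than the old. The difference was 0.59 ± 0.18 (SE, 95% interval 0.16 to 1.02, limma adjusted p = 0.094), a fold of 1.5. With normexp background correction it was 0.45 and called (adjusted p = 0.0232).

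Insig2, the related protein that is not driven by SREBPs in the same way, lay on the other side. The probe for transcript NM_133748 gave 0.32, 0.37 and 0.11 in old samples, against 0.84, 0.55 and 0.60 in young samples. Every old value lay below every young value, with a difference of -0.40 ± 0.12 (SE, adjusted p = 0.0953). The probe for a second Insig2 transcript, NM_178082, gave -0.0067, -0.33 and -0.25 in old samples, against -0.19, -0.52 and -0.54 in young samples. Here the groups overlapped and the sign was opposite, with a difference of 0.22 ± 0.14 (SE, adjusted p = 0.362). Whether the 2 probes see different transcripts was not tested.

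Srebf1, whose product mainly drives fatty acid genes, had the smallest adjusted p of the members. Its levels were -0.90, -0.83 and -1.06 in old samples, against -1.30, -1.29 and -1.33 in young samples. The young samples were nearly identical and all lay below the old, and the difference was 0.38 ± 0.09 (SE, n = 3 each, limma adjusted p = 0.0583), a fold of 1.30. It passed the threshold when only genes well above background on all 6 arrays were tested (adjusted p = 0.0445), with array weights (0.0428) and with normexp background correction (0.0432). Its adjusted p ranged from 0.0428 to 0.138 over the alternatives that kept all arrays. Srebf2, whose product mainly drives sterol genes, gave -0.75, -0.82 and -1.13 in old samples, against -0.79, -0.47 and -0.78 in young samples, a difference of -0.22 ± 0.15 (SE, adjusted p = 0.369). A dimmer Srebf2 probe had the same sign without overlap, -3.0, -2.95 and -3.28 in old samples, against -2.69, -2.39 and -2.20 in young samples (difference -0.65 ± 0.16, adjusted p = 0.0616). This probe was called lower when only probes well above background on all 6 arrays were tested (adjusted p = 0.0417).

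Scap, the escort itself, averaged 3.88 ± 0.09 in old samples and 3.87 ± 0.19 in young samples (SD, n = 3 each), and the sign of its difference changed with the scaling. Stard4, which carries cholesterol between membranes and whose gene lies on chromosome 18, gave 1.35, 1.60 and 1.08 in old samples, against 1.2, 1.16 and 1.17 in young samples. The old values straddled the tight young ones, with a difference of 0.17 ± 0.14 (SE, adjusted p = 0.477). Its second probe had the opposite sign, -0.24 ± 0.16 (SE).

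Fatty acid synthesis and desaturation had a median log2 difference of 0.17 over 8 genes, 6 of them above 0. Acly, the citrate lyase that supplies acetyl-CoA to both routes, gave 5.01, 5.08 and 5.22 in old samples, against 4.83, 4.90 and 4.89 in young samples. The groups did not overlap, and the difference was 0.23 ± 0.09 (SE, adjusted p = 0.150). The mean of both Acly probes was called, at 0.50 (adjusted p = 0.0344). Acaca, the acetyl-CoA carboxylase that makes malonyl-CoA, gave 3.57, 3.76 and 3.45 in old samples, against 3.38, 3.35 and 3.20 in young samples. Its groups also stood apart, with a difference of 0.28 ± 0.11 (SE, adjusted p = 0.162).

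Both genes carry further probes, and with each probe fitted alone 2536 of 31305 probes were called (8.1%). The array holds 44 member probes. Of the 11 further measured probes of members, 2 were called, both higher in old samples, and 5 had the opposite sign to the gene's brightest probe. The dimmer Acly probe gave -1.11, -0.97 and -0.95 in old samples, against -1.85, -1.64 and -1.83 in young samples, a difference of 0.77 ± 0.10 (SE, adjusted p = 0.0236). The second Acaca probe gave -0.77, -0.81 and -1.05 in old samples, against -1.60, -1.51 and -2.02 in young samples, a difference of 0.83 ± 0.16 (SE, adjusted p = 0.0374). The third and dimmest Acaca probe went the other way without being called, at -3.67, -3.26 and -3.59 in old samples, against -3.52, -3.15 and -2.97 in young samples (difference -0.29 ± 0.18). For both called probes the young samples lay well below the old, and by more than at the brightest probe of the same gene. Leaving out 1 array ended both calls in most cases: the Acaca call was lost whichever array was left out (adjusted p 0.0692 to 0.106), and the Acly call was kept only without old replicate 1 (0.0403 to 0.0768 over the 6 arrays).

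**Figure D4:**
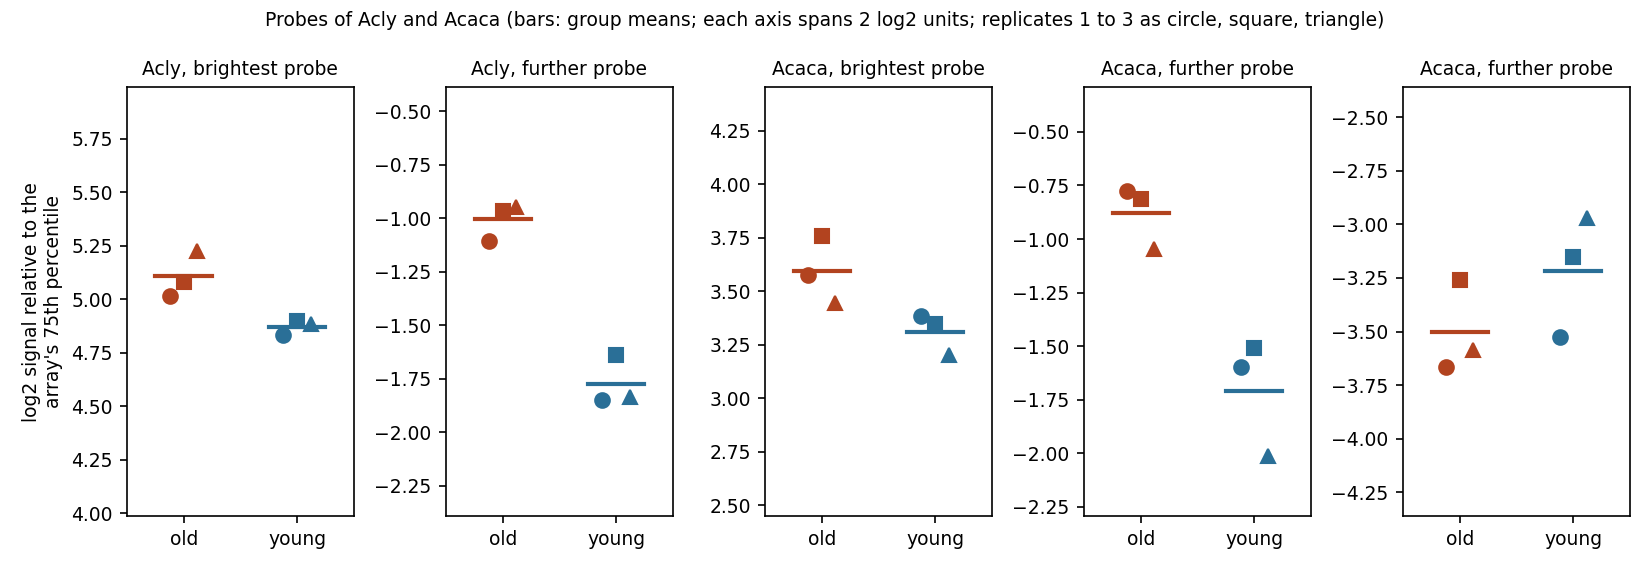
Log2 signal, with 0 at each array's 75th percentile, for the 2 probes of Acly and the 3 probes of Acaca, each panel spanning 2 log2 units, with old samples left of young samples and a bar at each group mean. The further Acly probe and the second Acaca probe differ by 0.77 and 0.83, the brightest probes by 0.23 and 0.28, and the third Acaca probe by -0.29.

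Fasn, the fatty acid synthase, gave -1.11, -0.97 and -1.35 in old samples, against -1.10, -0.83 and -1.50 in young samples. The group means were the same to 2 decimals, -1.14 ± 0.19 in old samples and -1.14 ± 0.33 in young samples (SD, n = 3 each), and the 95% interval of the difference ran from -0.47 to 0.47. Elovl6, which lengthens palmitate, gave 1.0, 1.4 and 1.07 in old samples, against 1.21, 1.16 and 0.90 in young samples. Its groups overlapped widely, with a difference of 0.07 ± 0.14 (SE, adjusted p = 0.785).

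The stearoyl-CoA desaturases Scd1 and Scd2 insert the double bond of oleate. Scd2 gave 3.67, 3.92 and 3.15 in old samples, against 2.98, 3.40 and 3.39 in young samples, and Scd1 gave 0.34, 0.01 and 0.19 in old samples, against -0.23, 0.06 and 0.16 in young samples. The groups overlapped in both, and Scd2 had the largest standard error of the members, with a difference of 0.32 ± 0.23 (adjusted p = 0.398), against 0.18 ± 0.14 for Scd1 (adjusted p = 0.438). Fads1 and Fads2, the desaturases of polyunsaturated fatty acids, had differences of opposite sign and equal size, -0.15 ± 0.11 and 0.15 ± 0.11 (SE). Fads1 gave 1.69, 1.57 and 1.36 in old samples, against 1.65, 1.63 and 1.78 in young samples. Fads2 gave -0.83, -0.81 and -0.93 in old samples, against -1.18, -0.87 and -0.96 in young samples, with overlap in both genes.

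Other lipid genes were read from 7 further lists. No gene was called among 12 genes of SREBP processing and sterol-regulated degradation, 14 of sterol uptake and endosomal export, 16 of acyl-CoA synthesis and fatty acid binding, and 22 of fatty acid oxidation. At an unadjusted limma p under 0.05, 5, 1, 3 and 4 of them passed. Among all genes 28.9% passed that threshold and 8.4% were called. In the first of these lists, Fbxw7, the ubiquitin ligase subunit that marks nuclear SREBPs for destruction, differed by 0.39 ± 0.11 (SE, adjusted p = 0.0746) and was called with normexp (0.0467) and with an intensity trend (0.0365). A dimmer Fbxw7 probe differed by 0.25 ± 0.20 with overlap (SE, limma adjusted p = 0.457). Spring1, needed for SREBP cleavage, was not well above background on any old array and was 1.81-fold lower in old samples as measured (adjusted p = 0.068). In the uptake list, Gramd1a, a carrier of cholesterol from the plasma membrane, differed by -0.46 ± 0.11 (SE, adjusted p = 0.0616), and its dimmer probe was called at -0.78 ± 0.14 (adjusted p = 0.0338). Gramd1a was called under 4 alternatives, with adjusted p between 0.0234 and 0.0455. The receptor Lrp1 differed by -0.53 ± 0.23 (adjusted p = 0.197).

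Fatty acid oxidation had 19 of 22 differences above 0 and a median of 0.15, while 62.5% of all genes were above 0. With cyclic loess 14 of the 22 were above 0, against 49.2% of all genes. With normexp background correction 16 of the 22 were above 0, against 69.0% of all genes, and both medians were 0.12. Hadh, the short-chain hydroxyacyl-CoA dehydrogenase of mitochondria, differed by 0.67 ± 0.18 (SE, adjusted p = 0.0684), and was called under 3 alternatives (0.0239 to 0.0495), and the long-chain enzyme subunit Hadha by 0.27 ± 0.09 (SE, adjusted p = 0.119). The widest difference, Acadl at 3.02 ± 2.35 (SE, adjusted p = 0.439), was named after its values were seen. Among genes that handle acyl-CoA, Acbd3, a protein with an acyl-CoA-binding domain, differed by -0.22 ± 0.07 (SE, adjusted p = 0.114). Acsbg1, an acyl-CoA synthetase, was not well above background on any old array and was 1.73-fold lower in old samples as measured (adjusted p = 0.135). With normexp background correction the differences of Spring1 and Acsbg1 were above 0, at 0.15 and 0.024, so their direction depends on the background correction.

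Of 14 sterol efflux, esterification and LXR genes, 2 were called lower in old samples and 0 higher, with a median of -0.18. The shares over all tested genes were 4.02% lower and 4.38% higher. Mylip, the ubiquitin ligase that removes the LDL receptor and is a target of the sterol-activated receptors LXR, fell by 0.79 ± 0.13 at its brightest probe (SE, adjusted p = 0.0291). It stood there at -0.31, -0.52 and -0.46 in old samples, against 0.23, 0.22 and 0.60 in young samples. A dimmer Mylip probe had the same sign but overlapped and was not called, at -0.51 ± 0.76 (SE, limma adjusted p = 0.699). Cyp27a1, the sterol 27-hydroxylase, was not well above background on any old array and was at least 1.32-fold lower in old samples (adjusted p = 0.0375). With normexp background correction its difference was 0.16 and not called. Among 19 other fatty acid synthesis and elongation genes, 1 was called lower. This was Mlxip, a glucose-sensing transcription factor, at -0.71 ± 0.15 (SE, adjusted p = 0.0451), while its other probe differed by -0.03 ± 0.22. Oxsm, the mitochondrial ketoacyl synthase, differed by 0.31 ± 0.08 (SE, adjusted p = 0.0684). A dimmer Oxsm probe differed by 0.10 ± 0.16 with overlap (SE, limma adjusted p = 0.721).

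Triglyceride synthesis and lipid droplet genes had 2 called higher and 2 lower in old samples, of 23, against 4.38% and 4.02% of all genes. Dgat1, an acyltransferase of the last step to triglyceride, fell by 0.84 ± 0.17 (SE, adjusted p = 0.0374), at 0.54, 0.24 and 0.08 in old samples, against 0.98, 1.03 and 1.39 in young samples. Cideb, a lipid droplet protein, rose by 0.59 ± 0.12 (SE, adjusted p = 0.0404). The 2 other calls were named after their values were seen. They were Dgat2, the other acyltransferase of that step, at -1.31 ± 0.27 (SE, adjusted p = 0.0416), and Fitm2, a protein of droplet formation, at 0.44 ± 0.10 (SE, adjusted p = 0.0477). Both acyltransferases were lower in old samples without overlap, as were 12.3% of all genes. Dgat2 stood at -0.04, -0.52 and -0.73 in old samples, against 0.42, 0.91 and 1.31 in young samples. Of the 7 calls in these lists, without old replicate 1 those of Mylip, Mlxip, Dgat1 and Dgat2 remained, and without young replicate 1 those of Cideb and Dgat2. None remained when any of the 4 other arrays was left out.

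**Figure D5:**
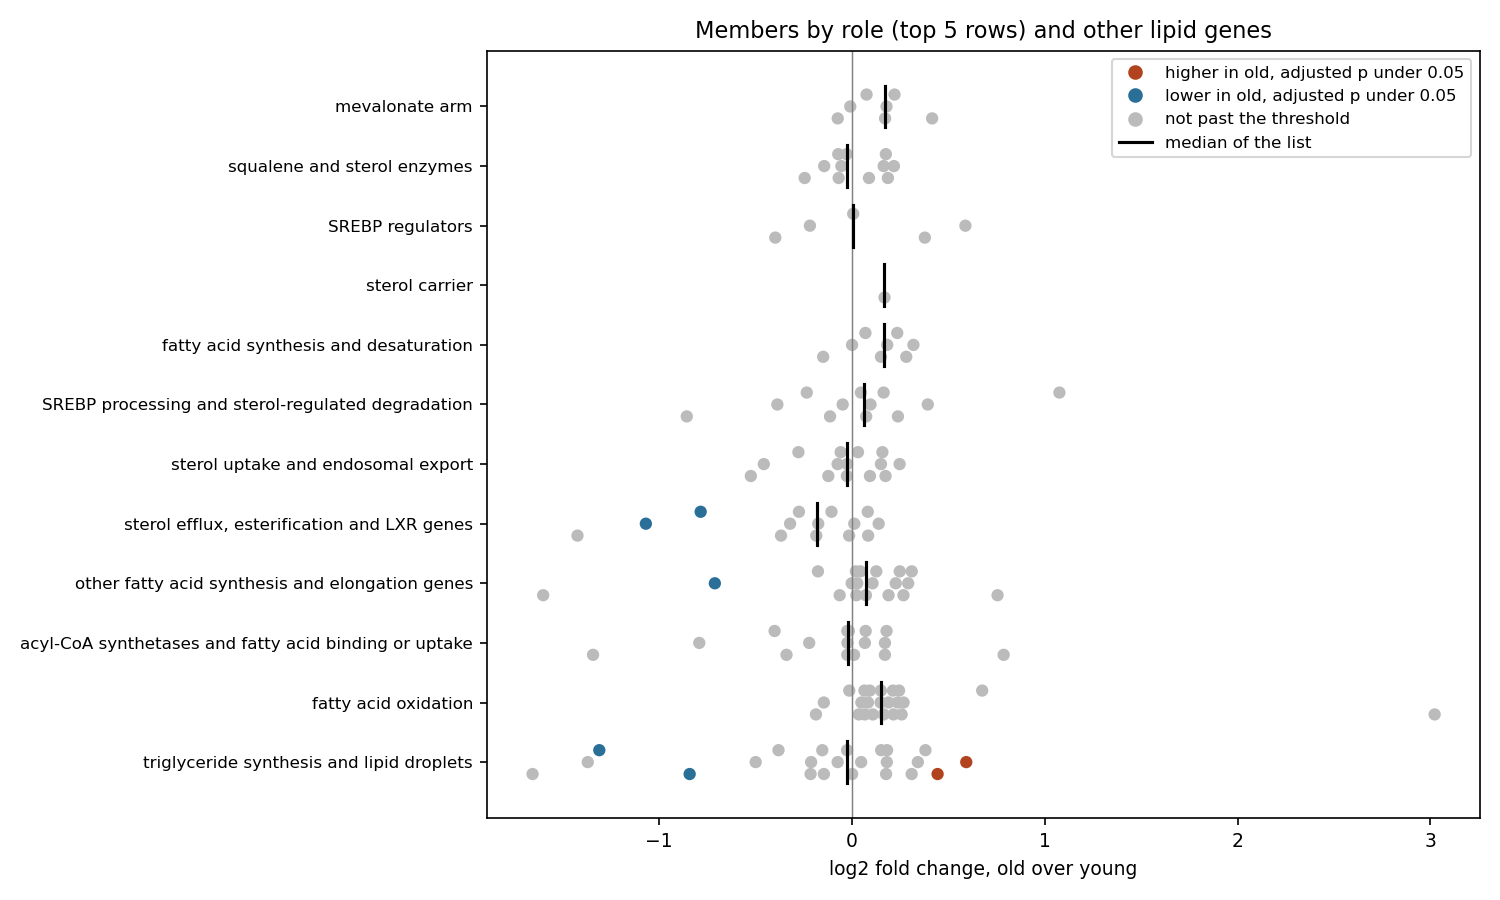
Log2 fold change of old over young for every tested gene of the 5 roles of the members (top rows) and of 7 other lists of lipid genes, with a bar at each list's median; coloured points passed the adjusted threshold. No member is coloured, and the 7 coloured points are 2 higher and 5 lower in old samples.

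Markers of blood cells moved between the same samples. Of the B cell markers, 7 of 11 were called lower in old samples and 0 higher, with a median of -2.34. Their summed level, in multiples of the array's 75th percentile signal, was 6.38 to 14.0 in old samples, against 35.8 to 69.4 in young samples. Monocyte and macrophage markers had 6 of 10 called lower (summed level 8.98 to 12.8 in old samples, against 19.7 to 44.0 in young samples). Neutrophil markers had 3 of 11 called lower (1060 to 1365 in old samples, against 1635 to 2541 in young samples). Shared leukocyte genes had 6 of 10 called lower (52.2 to 63.0 in old samples, against 95.2 to 178 in young samples). These 4 lists were thus lower in old samples without overlap of their sums. Over all tested genes 4.02% were called lower. The sums of the erythroid markers overlapped (668 to 748 in old samples, against 597 to 794 in young samples). Of these 10 markers, limma called 0, against 8.4% of all genes. At an unadjusted limma p under 0.05 it passed 1, against 28.9% of all genes.

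Stromal markers had 1 of 10 called higher and 2 lower with a median of -1.13, while their sum was higher in old samples, 41.7 to 47.8 against 29.3 to 32.7 in young samples, and Lepr stood at 4.42 to 4.85 in old samples, against 3.43 to 3.74 in young samples. Without Lepr the sums overlapped, at 18.8 to 20.3 in old samples, against 18.5 to 20.9 in young samples. Cxcl12 went the other way without overlap, at -3.09, -3.52 and -3.5 in old samples, against -0.07, -1.84 and -1.05 in young samples. Osteoblast markers had 1 of 7 called higher and 3 lower (summed level 1.31 to 1.62 in old samples, against 3.43 to 21.2 in young samples), and adipocyte markers 1 of 9 higher and 2 lower (2.32 to 2.69 in old samples, against 2.40 to 3.36 in young samples). T and NK cell markers had 2 of 10 called higher and 2 lower (24.6 to 28.2 in old samples, against 22.0 to 28.6 in young samples), and endothelial markers 1 of 6 higher and 0 lower (63.8 to 82.3 in old samples, against 43.6 to 55.3 in young samples). Genes of cell division, a process that uses new sterol and fatty acid for membranes, had a median of 0.01 (697 to 779 in old samples, against 713 to 787 in young samples). Of these 12 genes, limma called 0, and 1 passed an unadjusted p under 0.05. Among all genes 4.38% were called higher and 4.02% lower, and 28.9% passed that unadjusted threshold. What part these markers have in the differences of Mylip, Dgat1, Dgat2 or any member was not tested.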

How the data were processed

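The authors deposited 1 scanner file of spot intensities for each of 6 arrays, written by Agilent Feature Extraction 10.7.3.1 per the file headers, or 10.5.1.1 per the submitters' processing notes. Per the file headers, background and spatial trend had been removed from the processed intensity within each array, and nothing was scaled between arrays. The authors also deposited log2 values of 52095 of the 55681 probes, with no scaling method named in the sources used here. Each column correlated with its own array at r of 0.9986 or more across probes. Column medians were 4.94, 4.92 and 4.87 in old samples, and 4.91, 4.92 and 4.95 in young samples.

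Control and outlier spots were left out, repeated spots averaged, and log2 values set against each array's 75th percentile. Symbols came from RefSeq (GRCm38.p6) by accession, for 26413 probes (47.4%). A gene was its brightest probe, tested when well above background on at least 3 arrays, with limma 3.58.1 in R 4.3.3, without covariates. "At least N-fold" sets the measured group against, per array, the higher of the dimmest probe well above background and the gene's own signal. Every member was named, and of each other lipid list the 2 genes with the smallest p. Members and lists were chosen with earlier results of these data known. The steps were tested on simulated data. A further list of lipid genes is not reported here.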

Additional observations from a re-analysis of the deposited data

How the results depend on the processing

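The count of members called lower was 0 under every alternative run, and 1 or 2 members were called higher under some: 2 with normexp on the median signals (Insig1 and Srebf1), 1 with the filter for all 6 arrays (Srebf1), 1 with the mean of a gene's probes (Acly) and 1 with array weights (Srebf1). In each setting with a called member, the share of members called was below the share of all tested genes called. At an unadjusted limma p under 0.05, these settings passed 5, 7, 7 and 7 of the 32 members, in that order. Over all genes they passed 8289, 6316, 6682 and 7027. The count of calls over all genes was 3377 of 23285 with normexp and 3545 with an intensity trend. It was 0 without a filter (11933 at an unadjusted p under 0.05) and 0 with the replicate number as a block (5688). Leaving out 1 array gave 0 to 1263 calls, 0 without old replicate 3, 1 without old replicate 2, 1263 without old replicate 1, and 832, 72 and 305 without young replicates 1, 2 and 3. Over the tested genes as a whole, same-numbered samples did not deviate together (r of -0.03, 0.02 and -0.01). Whether the numbers pair samples in a way that moves only some genes was not tested. The members' median was 0.029 with cyclic loess and 0.063 to 0.15 with 1 array left out. Normexp on mean signals was not run, since the files used here carry median signals; normexp on those, and each probe fitted alone, were added after the data were seen. Of the 7 other lipid genes called, the deposited table ended the calls of Cideb and Fitm2, quantile scaling, cyclic loess and median scaling that of Fitm2, the mean of probes those of Mylip, Mlxip and Fitm2, and the intensity trend those of Cyp27a1 and Fitm2. Calls were gained for Fbxw7 (normexp, trend), Gramd1a (normexp, all-6 filter, mean of probes, trend), Hadh (normexp, all-6 filter, trend) and the dimmer Srebf2 probe (all-6 filter).

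Several differences changed sign, most of them near 0, but with normexp also those of Cyp27a1, Spring1, Acsbg1 and the third Acaca probe, which were -1.07, -0.86, -0.79 and -0.29. With normexp the values were -0.0043 for Hmgcs1, 0.028 for Cyp51, 0.046 for Hsd17b7, -0.066 for Scap, 0.086 for Fasn, -0.026 for Elovl6, 0.15 for Spring1, 0.16 for Cyp27a1, 0.024 for Acsbg1 and 0.13 for the third Acaca probe. Array weights gave 0.046 for Fdps, 0.016 for Cyp51, -0.047 for Scap, -0.058 for the dimmer Hsd17b7 probe and -0.015 for the dimmer Nsdhl probe. Scap was -0.068 with quantile scaling, -0.093 with cyclic loess, -0.039 with median scaling and -0.065 in the deposited table. In that order the dimmer Hsd17b7 probe was -0.060, -0.078, -0.043 and -0.11, and the dimmer Nsdhl probe was -0.021 with quantile scaling, -0.026 with cyclic loess and -0.064 in the deposited table. The mean of probes gave -0.035 for Stard4. With 1 array left out, the ranges that crossed 0 were -0.15 to 0.016 for Idi1, -0.077 to 0.12 for Fdps, -0.19 to 0.080 for Fdft1, -0.14 to 0.12 for Cyp51, -0.095 to 0.021 for Msmo1, -0.19 to 0.014 for Nsdhl, -0.10 to 0.077 for Scap, -0.18 to 0.15 for Fasn and -0.052 to 0.15 for Elovl6. For dimmer probes they were -0.080 to 0.10 for Hsd17b7, -0.067 to 0.17 for Nsdhl and -0.002 to 0.39 for Tm7sf2. The cause of these changes was not tested. Outside leaving out an array, 333 of the members' values kept sign and side of the threshold, 5 became called and 14 changed sign. Many of the 333 could not have changed sign. The filter, the intensity trend and the replicate block leave a gene's difference as in the main fit. Without a filter and with the block, 0 genes of the array were called, so no member could become called there.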
